A study of Mus musculus with 24 samples.

Results

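Transgenic (TGA) and wild-type (WT) mouse liver was compared within the libraries whose title ends in 8, called class 8 here. These are 8 of the 24 libraries of the series, 4 TGA and 4 WT, and they were chosen by that suffix and by the genotype label alone. All come from mice of strain C3H/HeJ. The labels give liver as the tissue but neither the age of the animals, nor the transgene, nor its promoter, nor what the suffix stands for. The series title speaks of polyploid hepatocytes in chronic liver disease, so a reading of 8 as DNA content rests on that title alone. Published work in this field silenced Anln, which encodes anillin of the cytokinetic ring, with a short hairpin RNA, and that this is the transgene here is likewise a reading. RNA was isolated with a kit made for formalin-fixed tissue in paraffin and sequenced as single-end reads of 75 bp. The remaining libraries form classes 2 and 4, with 4 libraries of each genotype in each. The labels do not say that libraries of a group come from separate animals, so the p-values cover the spread from library to library, which may be technical.

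Hepatocytes, the parenchymal cells of the liver, make most plasma proteins, including albumin, apolipoproteins, clotting factors and protease inhibitors, and they carry out the urea cycle, gluconeogenesis and lipid metabolism. Many of them become polyploid when they replicate their DNA without completing cytokinesis, so that a cell ends with more than the usual set of chromosomes in 1 or more nuclei. Their secreted proteins are encoded by some of the most abundant mRNAs of the tissue.

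Every level below is log2(normalised count + 1), in which 0 means that the gene is listed at 0 in that library. A difference is the TGA mean minus the WT mean on this scale, which can understate or overstate the change of weakly expressed genes. Of the 35974 gene symbols in the table, 4875 reached a value of 1 as deposited in 4 or more of the 24 libraries and were tested with limma, with adjustment over all 4875.

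Many values were 0. In WT numbers 1 to 4 of class 8, 2479, 3814, 2674 and 3676 genes were above 0. In TGA numbers 1 to 4 the counts were 2110, 2860, 9096 and 2717. TGA number 3 thus stood apart from the other 7 libraries. The means of 3161 ± 682 genes in WT and 4196 ± 3283 in TGA (SD, n = 4 each) gave no detectable difference in a two-sided exact permutation test (p = 0.857). Without TGA number 3 the difference turned from 1035 to -598.4 genes (exact permutation p = 0.286). Among the tested genes, 61.7% of the WT values and 54.6% of the TGA values were 0, and 61.2% of the TGA values without TGA number 3. More zeros stood on the WT side for 2179 genes, more on the TGA side for 1343, and the number was equal for 1353. Genes that every cell uses were among those at 0: Gapdh, a glycolytic enzyme, was at 0 in all 8 libraries and Actb, beta-actin, in 3 WT and 1 TGA libraries. A gene at 0 is therefore described as listed at 0, not as silent, and no read depth can be recovered from these values.

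The labels could not be checked on Anln. It was listed at 0 in all 4 TGA libraries of class 8 and in 3 of 4 WT libraries, with 0.82 in WT number 2, and it did not reach the tested set. The liver label was checked on cell type markers. Of 25 hepatocyte markers, 24 were tested, against 0 of 14 macrophage and Kupffer cell markers, 0 of 15 lymphocyte markers, 0 of 8 erythroid markers, 1 of 10 neutrophil markers, 1 of 17 stellate cell and fibroblast markers, 2 of 13 cholangiocyte markers and 4 of 18 endothelial markers. In all 8 libraries 7 of the 14 macrophage, 10 of the 15 lymphocyte, 7 of the 8 erythroid and 7 of the 10 neutrophil markers were at 0. So were 7 of the 17 stellate cell, 4 of the 13 cholangiocyte, 6 of the 18 endothelial and 3 of the 25 hepatocyte markers. Over the whole table, 21669 of 35974 genes were at 0 in all 8, so a marker at 0 is no sign of a missing cell type. The mean level of the 4 tested endothelial markers was between 0 and 0.48 in the WT libraries and between 0 and 0.48 in the TGA libraries. From these values, fewer cells of a type and less RNA per cell cannot be told apart.

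Rorb was the only gene past the threshold. It encodes a nuclear receptor, retinoid-related orphan receptor beta, known from retina and brain. Its level was 15.54, 13.42, 13.42 and 13.71 in WT numbers 1 to 4 and 11.21, 10.94, 9.03 and 6.17 in TGA numbers 1 to 4. All 4 TGA libraries lay below all 4 WT libraries. Rorb fell from 14.02 ± 1.02 to 9.34 ± 2.32 (SD, n = 4 each), a difference of -4.69 (SE 0.92, limma adjusted p = 0.0289). The exact permutation p was 0.0286, the smallest that 4 against 4 can give. Every gene without overlap gets this p, and there were 79 higher (1.62%) and 78 lower (1.6%) such genes. It thus adds nothing on Rorb beyond the lack of overlap. The limma SE rests mainly on the spread pooled over genes, with 27.8 prior against 18 residual degrees of freedom. Rorb was 1 of 4875 genes called lower (0.0205%), and 0 genes were called higher (0%). At an unadjusted p under 0.05, 253 genes were higher (5.19%) and 223 lower (4.57%) in TGA. Without TGA number 3 these counts were 314 and 176. The split turned, with more lower than higher genes, when any 1 WT library was left out (188 and 252 without WT number 3) and when libraries were centred on their means (209 and 272). That the counted reads are from the receptor's mRNA was not tested.

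The call of Rorb was sensitive to which libraries were fitted. Without TGA number 3, its difference was -4.58 with an adjusted p of 0.0716 (limma), and the 1 gene then called was Apoa1. With the 8 class 8 libraries alone, 10 genes were called, all higher, and Rorb had an adjusted p of 0.344. The adjusted p of Rorb was also above 0.05 when WT number 1 (0.189), WT number 3 (0.0581) or TGA number 4 (0.291) was left out. It was above 0.05 as well with no filter on low values (0.501), with a pseudocount of 10 (0.0810), with the number of genes above 0 as a covariate (0.0790) and without a mean-dependent prior (0.146), while the difference stayed between -5.31 and -3.63 over its 18 alternatives.

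**Figure D1:**
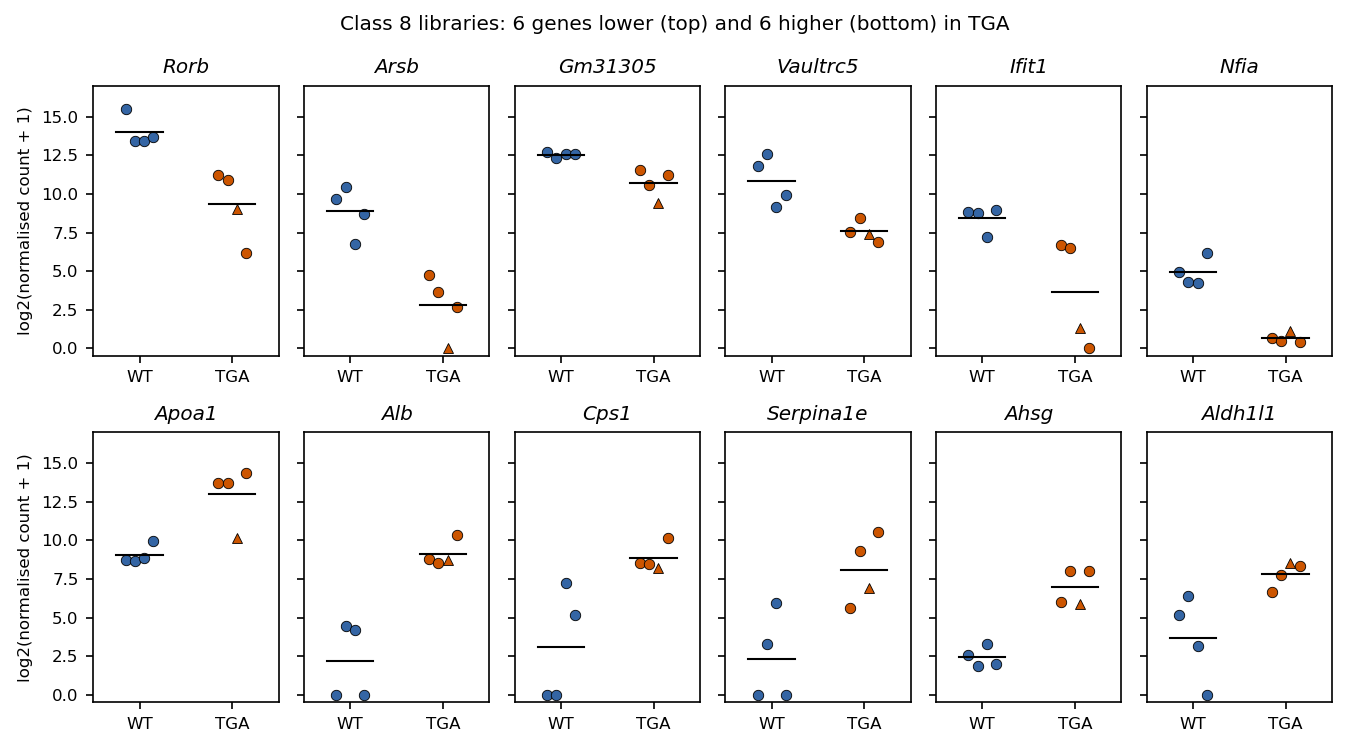
Level of 12 genes in the class 8 libraries, as log2(normalised count + 1), with WT in blue, TGA in orange, TGA number 3 as a triangle and the group mean as a line. Points at 0 are libraries in which the gene is listed at 0, as Alb and Cps1 are in 2 of 4 WT libraries each, and the 4 TGA values of Rorb, from 6.17 to 11.21, all lie below its WT values.

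Apolipoproteins, which carry lipids in plasma lipoproteins, had higher values in TGA in 12 of 13 tested members, and 1 was equal. Apoa1, which forms the core protein of high-density lipoprotein, was 8.76, 8.67, 8.86 and 9.95 in WT and 13.71, 13.71, 10.19 and 14.40 in TGA. The genotypes did not overlap, and TGA number 3 lay nearest to WT. The difference of 3.95 (SE 0.89) did not pass with all libraries (limma adjusted p = 0.0937) and passed without TGA number 3, at 4.88 (adjusted p = 0.00826). Apoe, the ligand through which remnant particles are taken up, was 10.54, 10.37, 9.42 and 10.24 in WT and 11.95, 12.89, 10.05 and 12.89 in TGA (difference 1.80, SE 0.67, adjusted p = 0.378). Here TGA number 3 fell within the WT range and the other 3 lay above it. The median difference of the list was 1.09, and 1.66 without TGA number 3, against 0.11 and 0 over all genes tested. At an unadjusted p under 0.05, 2 members were higher and 0 lower, against 5.19% and 4.57% of all genes tested. Over all genes, 52.6% had a difference above 0 and 43.8% below 0.

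Plasma carriers and related secreted proteins were higher in 14 of 17 tested members and lower in 3, with a median of 2.54. At an unadjusted p under 0.05, 7 were higher and 0 lower, against 5.19% and 4.57% of all genes tested. Alb, serum albumin, was at 0 in WT numbers 1 and 4 and at 4.44 and 4.17 in numbers 2 and 3. In TGA it was 8.79, 8.54, 8.73 and 10.35. Every TGA value of Alb lay above every WT value (difference 6.95, SE 1.71, limma adjusted p = 0.120). With Alb listed at 0 in WT numbers 1 and 4, this difference is no measured fold. Ahsg, fetuin-A, an inhibitor of calcification, was 2.58, 1.86, 3.29 and 2.01 in WT and 6.02, 8.01, 5.86 and 8.01 in TGA, with no overlap (difference 4.54, SE 1.64, adjusted p = 0.343). Its WT values were near the most frequent value above 0 of each library (3.39, 1.62, 3.17 and 1.68). Trf, transferrin, the iron carrier, overlapped: 9.53 to 10.91 in WT, and 12.98, 12.32, 9.98 and 12.32 in TGA numbers 1 to 4 (1.56, adjusted p = 0.455).

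Values of the genotypes did not overlap for 79 genes that were higher in TGA (1.62% of those tested) and 78 that were lower (1.6%). Of these, 41 were above 0 in all 4 TGA libraries and at 0 in all 4 WT libraries (0.841%), and 27 the other way round (0.554%). Among the 41 was Pzp, pregnancy zone protein, a broad protease inhibitor of plasma, at 5.96, 5.87, 4.97 and 7.08 in TGA numbers 1 to 4 (limma adjusted p = 0.150). The upstream DNA of Alb and Pzp is shown because they were the members of the 10 higher genes of smallest p that held the core letters of the site of HNF1, a hepatocyte transcription factor. The 250 bases before each RefSeq transcript start on GRCm38.p6 are at chr5:90460620-90460869 for Alb, on the plus strand, and at chr6:128526721-128526970 for Pzp, on the minus strand, each written along the gene's own strand, with matches to GTTAAT or its reverse complement ATTAAC in capitals.

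Alb: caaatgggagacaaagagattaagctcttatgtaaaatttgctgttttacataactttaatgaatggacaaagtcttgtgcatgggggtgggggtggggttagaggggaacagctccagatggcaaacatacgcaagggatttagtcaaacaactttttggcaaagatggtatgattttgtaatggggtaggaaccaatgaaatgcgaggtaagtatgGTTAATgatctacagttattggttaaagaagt

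Pzp: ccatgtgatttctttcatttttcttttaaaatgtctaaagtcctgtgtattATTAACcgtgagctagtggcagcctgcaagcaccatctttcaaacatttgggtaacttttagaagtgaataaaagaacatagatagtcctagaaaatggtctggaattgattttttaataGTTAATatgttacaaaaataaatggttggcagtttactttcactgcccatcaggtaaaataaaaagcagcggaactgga

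In Alb the match begins 32 bases before the start. In Pzp the matches begin 79 and 199 bases before it, the farther one on the other strand. The letters, searched on both strands from 250 bases before to 50 after the start, were in 2 of the 7 windows found for the 10 higher genes of smallest p, in 0 of the 7 windows found for the 10 lower ones, and in 7.1% of all 32851 windows. The letters TATAAA (or TTTATA on the other strand), the core of the TATA box, were in 0 and 1 of these 7 windows each, and in 13.6% of all windows. A match is a description of the sequence and no evidence of binding.

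Protease inhibitors of the serpin A family had higher values in 6 of 7 tested members. At an unadjusted p under 0.05, 3 were higher, where the share over all genes tested was 5.19%. Only 2 of the 7 were above 0 in both genotypes, which here and below means in at least 1 library of each, and 85.7% of the WT values were 0. A gene at 0 throughout WT can only be higher or equal in TGA. Serpina1b, an alpha-1-antitrypsin, was at 0 in all 4 WT libraries and at 5.94, 6.37, 5.55 and 6.33 in TGA (limma adjusted p = 0.168). Serpina1e was 0, 3.28, 5.97 and 0 in WT and 5.63, 9.33, 6.93 and 10.52 in TGA, so that WT number 3 overlapped TGA number 1 (difference 5.79, SE 1.73, adjusted p = 0.212). The alpha-1-antitrypsin genes are near-identical copies whose reads may have been split between them, so the values of single copies are uncertain.

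Coagulation genes were higher in 15 of 18 tested members and lower in 3. Without adjustment (p under 0.05), 7 were higher and 1 lower, against 5.19% and 4.57% of all genes tested. The median was 1.93, 2.76 without TGA number 3, and 1.35 over the 10 members above 0 in both genotypes. Proc, protein C, an anticoagulant protease, was at 0 in all 4 WT libraries and at 6.48, 7.05, 4.97 and 6.06 in TGA (adjusted p = 0.150). F12, factor XII, was also listed at 0 throughout WT, and at 6.06, 4.16, 0.85 and 5.94 in TGA (adjusted p = 0.410). Serpinf2, the plasmin inhibitor alpha-2-antiplasmin, was 0, 5.15, 0 and 3.0 in WT and 8.41, 8.19, 0.53 and 8.09 in TGA. For F12 and Serpinf2 TGA number 3 was the lowest of the TGA libraries (Serpinf2 difference 4.27, limma adjusted p = 0.379).

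Complement genes were higher in 11 of 16 members, with a median of 0.99, and acute phase genes in 13 of 16, with a median of 1.58. Among the 9 members of each list above 0 in both genotypes the medians were 0.27 and 1.03. C3, the central complement component, was 0, 4.58, 2.15 and 0 in WT and 7.89, 8.04, 1.87 and 7.14 in TGA (difference 4.55, limma adjusted p = 0.399). TGA number 3 was within the WT range. Itih1, an inter-alpha-trypsin inhibitor heavy chain, was at 0 in all WT libraries and at 6.16, 3.18, 1.77 and 6.96 in TGA. Hpx, hemopexin, a heme carrier, was at 0 in all WT libraries and in TGA number 1, and at 6.22, 0.93 and 6.80 in TGA numbers 2 to 4.

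Among metabolic genes of hepatocytes, the urea cycle had 5 tested members, 3 higher and 2 lower. Cps1, the carbamoyl-phosphate synthetase that starts the cycle, was 0, 0, 7.26 and 5.18 in WT and 8.56, 8.45, 8.19 and 10.17 in TGA. Every TGA value was above every WT value (difference 5.73, SE 1.60, limma adjusted p = 0.168). Arg1, arginase, was at 0 in 3 WT libraries and at 6.90 in WT number 3, against 5.98, 5.64, 0.66 and 3.23 in TGA, and the genotypes overlapped (adjusted p = 0.723). Amino acid and folate catabolism had 27 members higher and 8 lower of 35 (median 0.63, and 1.07 without TGA number 3). Aldh1l1, a folate dehydrogenase, was 5.17, 6.42, 3.17 and 0 in WT and 6.64, 7.74, 8.54 and 8.32 in TGA, with no overlap (difference 4.12, adjusted p = 0.422).

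Glucose and lipid enzymes also had more members with higher than with lower values in TGA. Gluconeogenesis and glucose enzymes were higher in 13 of 15 members (median 1.65, and 1.14 over the 8 above 0 in both genotypes). By unadjusted p under 0.05, 5 were higher and 0 lower, against 5.19% and 4.57% of all genes tested. Pcx, pyruvate carboxylase, was 3.39, 1.62, 0 and 0 in WT and 5.44, 3.84, 6.69 and 6.20 in TGA, without overlap (limma adjusted p = 0.391). Lipogenesis was higher in 14 of 20 (median 1.08). Fasn, fatty acid synthase, was at 0 in 3 WT libraries and at 5.15 in WT number 2, against 5.81, 5.92, 1.32 and 7.70 in TGA (adjusted p = 0.498). Fatty acid oxidation was higher in 17 of 21 (median 0.84), but among the 13 members above 0 in both genotypes the median was 0.24.

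Chaperones of the endoplasmic reticulum, where secreted proteins fold, were higher in 12 of 18 members and lower in 4. At an unadjusted p under 0.05, 3 were higher, where the share over all genes tested was 5.19%. Hyou1, a large chaperone of this compartment, was at 0 in all WT libraries and at 6.89, 6.86, 4.05 and 7.08 in TGA (limma adjusted p = 0.127). Dnajc3, a co-chaperone, was 0, 3.82, 0 and 3.71 in WT and 7.63, 5.64, 5.73 and 5.27 in TGA, with no overlap (adjusted p = 0.406). Hsp90b1, the chaperone GRP94, was at 4.67 in WT number 2 and at 0 in the other WT libraries, and at 0, 7.97, 7.19 and 7.01 in TGA (adjusted p = 0.455).

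The hepatocyte marker list, which shares Alb, Apoa1, Cps1, Ahsg and others with the lists above, was higher in 20 of 24 tested members and lower in 2. At an unadjusted p under 0.05, 8 were higher and 0 lower, and 5 did not overlap between the genotypes. Over all tested genes, 5.19% were higher by that p and 1.62% were higher without overlap. Of its values, 60.4% were 0 in WT and 33.3% in TGA. The mean level over the 24 markers was 1.57, 3.08, 2.03 and 2.36 in WT and 3.39, 4.89, 3.17 and 6.08 in TGA. TGA number 3, with the most genes above 0, had the lowest TGA mean, only just above that of WT number 2. The median difference was 1.76, 2.37 without TGA number 3, and 1.91 over the 16 markers above 0 in both genotypes. Periportal genes were higher in 18 of 22 members (median 0.99) and pericentral genes, of the zone near the central vein, in 9 of 14 (median 0.35). Among the 11 pericentral genes above 0 in both genotypes the median was 0.19. None of the members of these lists passed the threshold over all genes.

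Housekeeping genes, which every cell type uses, also had mostly higher values in TGA. Of 8 tested members, 7 were higher and 1 lower in TGA, with a median of 2.03 (1.57 without TGA number 3), and 68.8% of their values were 0 in WT against 37.5% in TGA. At an unadjusted p under 0.05, 1 was higher and 1 lower, against 5.19% and 4.57% of all genes tested. Eef2, the elongation factor of translation, was at 0 in 3 WT libraries, at 3.16 in WT number 4 and at 6.23, 5.25, 6.36 and 6.97 in TGA (difference 5.41, SE 1.66, limma adjusted p = 0.245). Polr2a, the large subunit of RNA polymerase II and the 1 lower member, was 4.70, 4.94, 6.12 and 0 in WT, 2.10 in TGA number 3 and 0 in the other 3 TGA libraries (difference -3.42, SE 1.62, adjusted p = 0.498).

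**Figure D2:**
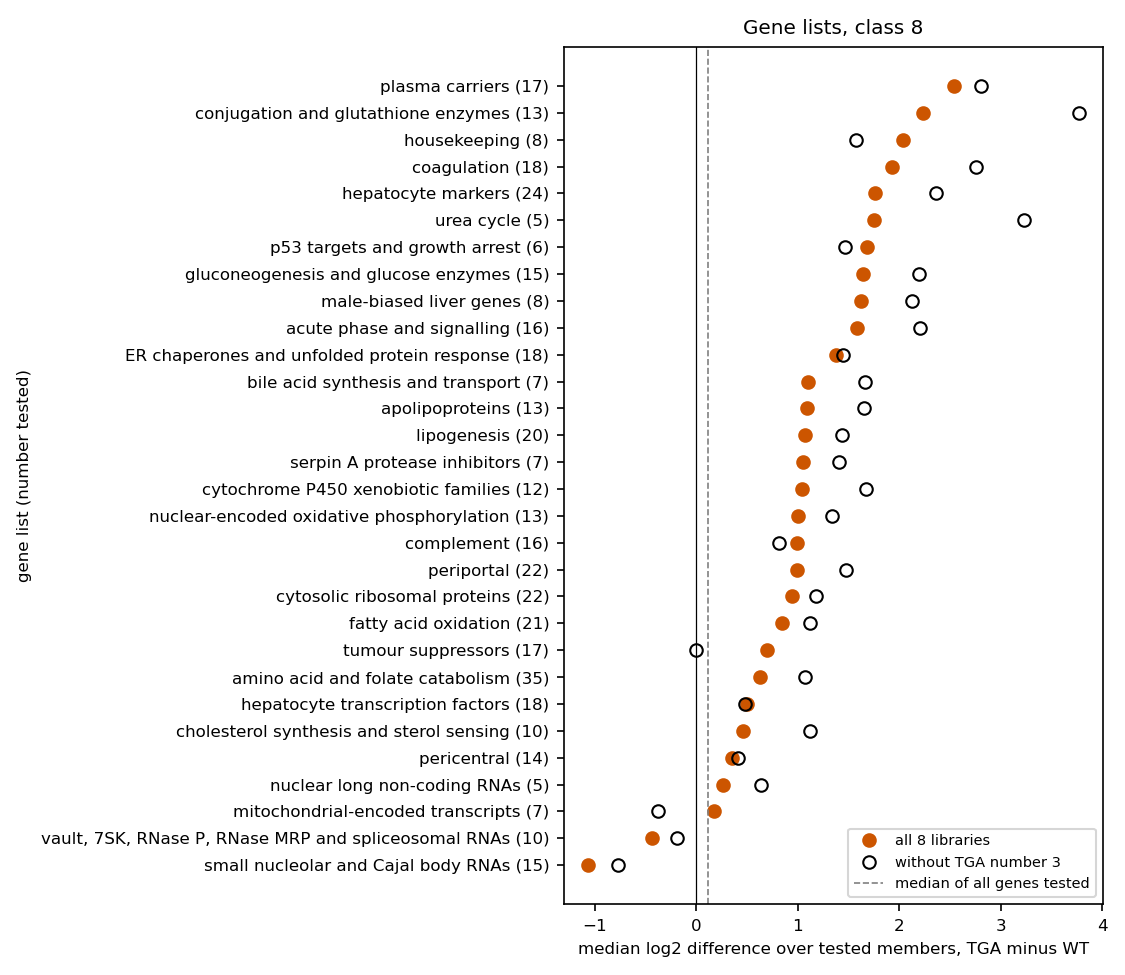
Median log2 difference (TGA minus WT, class 8) over the tested members of each gene list with at least 5 of them, with all 8 libraries (orange) and without TGA number 3 (open). The dashed line is the median of all genes tested, 0.11. With all 8 libraries plasma carriers lie farthest to the right at 2.54 and small nucleolar RNAs farthest to the left at -1.06, while without TGA number 3 conjugation and glutathione enzymes lie farthest to the right at 3.77. That list counts Ugt1a10 and Ugt1a2, which had equal values, as separate members.

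For some lists the sign of the median depended on genes listed at 0 in one genotype, whose fitted difference is no measured fold. Cytosolic ribosomal proteins were higher in 15 of 22 members with a median of 0.94, but the 9 members above 0 in both genotypes had a median of -0.32. Nuclear-encoded oxidative phosphorylation genes had a median of 1.0 over 13 members and -0.96 over the 3 above 0 in both. For bile acid genes the values were 1.10 over 7 members and -0.37 over 3. Over all genes tested the median of 0.11 became -0.07 among the 3151 genes above 0 in both genotypes. Transcripts encoded by the mitochondrial genome, all 7 above 0 in both, had a median of 0.17, and of -0.38 without TGA number 3. Members above 0 in both genotypes can still hold zeros, as did 14.3% of the WT values and 7.14% of the TGA values of these 7.

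Below Rorb in the order of p-values among the lower genes came Arsb, arylsulfatase B, a lysosomal enzyme that breaks down dermatan and chondroitin sulfate. It was 9.65, 10.48, 6.79 and 8.69 in WT and 4.72, 3.68, 0 and 2.69 in TGA, with no overlap (difference -6.13, SE 1.37, limma adjusted p = 0.0937). Cylc2, cylicin 2, a cytoskeletal protein of the sperm head, was 6.04, 5.75, 6.82 and 2.86 in WT and listed at 0 in all TGA libraries (adjusted p = 0.0937). Fgf9, a fibroblast growth factor, was 8.40, 7.21, 3.99 and 6.57 in WT, 2.85 in TGA number 2 and 0 in the other 3 (adjusted p = 0.120). In all 3 genes each TGA value was below each WT value.

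Other lower genes included regulators and an interferon target. Ifit1, an interferon-induced protein that binds foreign RNA, was 8.86, 8.79, 7.19 and 8.98 in WT and 6.68, 6.52, 1.32 and 0 in TGA, without overlap (difference -4.83, SE 1.57, limma adjusted p = 0.274). It was 1 of only 2 tested interferon response genes of 26 in the table. Nfia, a transcription factor of the nuclear factor I family, was 4.93, 4.29, 4.24 and 6.17 in WT and 0.67, 0.48, 1.09 and 0.38 in TGA (difference -4.25, SE 1.48, adjusted p = 0.313). Its values in TGA numbers 1, 2 and 4 were below the most frequent value above 0 of their library (3.86, 2.08 and 2.29). Of the 18 tested hepatocyte transcription factors, 12 were higher and 6 lower, and Nfia was the 1 without overlap. Afp, alpha-fetoprotein, the albumin-like protein of fetal liver, was 4.18, 1.62, 3.17 and 1.68 in WT and at 0 in all TGA libraries (adjusted p = 0.455). Gm31305, an uncharacterised locus, was 12.73, 12.32, 12.56 and 12.56 in WT and 11.58, 10.57, 9.44 and 11.21 in TGA, again without overlap (-1.84, SE 0.64, adjusted p = 0.313).

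Small structural RNAs, unlike the hepatocyte lists, had more members with lower values in TGA. Vaultrc5, a vault RNA of the cytoplasmic vault particle, was 11.81, 12.56, 9.15 and 9.91 in WT and 7.54, 8.47, 7.43 and 6.91 in TGA (difference -3.27, SE 1.11, limma adjusted p = 0.309). Rmrp, the RNA of the endoribonuclease RNase MRP, was 9.25, 11.51, 10.58 and 9.93 in WT and 8.47, 8.82, 6.47 and 8.24 in TGA (-2.31, SE 0.89, adjusted p = 0.396). In both, all TGA values were below all WT values. The list of vault, 7SK, RNase and spliceosomal RNAs had 4 members higher and 6 lower of 10 (median -0.44, and -0.19 without TGA number 3). At an unadjusted p under 0.05, 0 were higher and 4 lower, against 5.19% and 4.57% of all genes tested. Small nucleolar and Cajal body RNAs, which guide the modification of other RNAs, were higher in 5 of 15, lower in 9 and equal in 1 (median -1.06). Rpph1, the RNA of RNase P and one of the 10 most abundant transcripts, was between 12.08 and 12.73 in WT and at 12.73, 13.42, 9.92 and 13.42 in TGA, and its difference turned from -0.15 to 0.67 without TGA number 3.

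**Figure D3:**
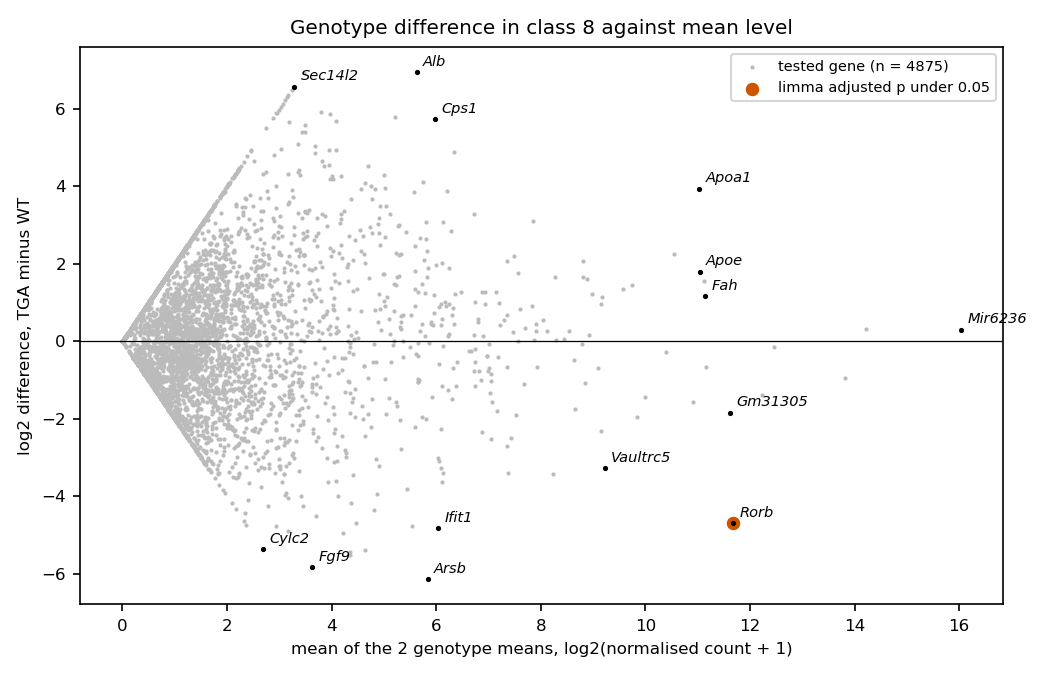
Log2 difference (TGA minus WT, class 8) against the mean of the genotype means for the 4875 tested genes, with the 1 gene past the adjusted threshold in orange. Points along the diagonal edges are genes listed at 0 in every library of one genotype, so their height shows the level in the other genotype and no fold.

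The 41 genes found in TGA alone included Sec14l2, a lipid-binding protein that stimulates squalene epoxidation, at 7.87, 7.18, 4.97 and 6.30 in TGA (limma adjusted p = 0.120). Keap1, the adaptor that targets the stress factor NRF2 for degradation, was at 5.59, 5.78, 3.41 and 4.31 (adjusted p = 0.150). Rpsa, a ribosomal protein with many processed copies in the genome, was at 6.06, 6.94, 6.81 and 6.15, and its counting is uncertain for that reason. The 27 genes found in WT alone included Pdk4, the kinase that inhibits pyruvate dehydrogenase, at 4.0, 5.36, 3.17 and 4.78 (adjusted p = 0.273), and Sucnr1, the succinate receptor, at 4.45, 2.19, 3.17 and 2.18 (adjusted p = 0.251). Both sets are defined within class 8 only. Sec14l2 was at 6.83, 6.32, 4.53 and 6.98 in the WT libraries of class 2. Pdk4 was at 4.01, 4.98, 1.75 and 0 in the TGA libraries of class 4.

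The genes found in WT alone were near the lowest readable level more often. Each library has a most frequent value above 0, which was 9.48, 2.08, 8.03 and 2.21 normalised counts in WT numbers 1 to 4 and 13.5, 3.24, 0.333 and 3.90 in TGA numbers 1 to 4. Of the 108 values of the 27 genes found in WT alone, 54 (50%) were at or below that value of their library. Of the 164 values of the 41 genes found in TGA alone, 20 (12.2%) were. Over all tested genes, the shares among values above 0 were 30.2% in WT and 19.6% in TGA. Afp was at or below it in 3 of its 4 WT libraries, while Cylc2 was above it in all 4.

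Gene types were counted in each direction by the RefSeq annotation of GRCm38.p6, which matched 4744 of the 4875 tested symbols. Long non-coding RNAs made up 7.82% of the matched tested genes. Among the non-overlapping genes they were 0 of 79 of the higher ones and 17 of the 75 matched lower ones (22.7%). Among the genes found in one genotype alone, they were 0 of 41 for TGA and 11 of 26 matched for WT (42.3%), with Gm33172, Gm12514 and Gm26744 among them. At an unadjusted p under 0.05 the shares were 1.19% of 253 higher and 24.3% of 210 matched lower genes. Whether this follows from the depth of the libraries was not tested.

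**Figure D4:**
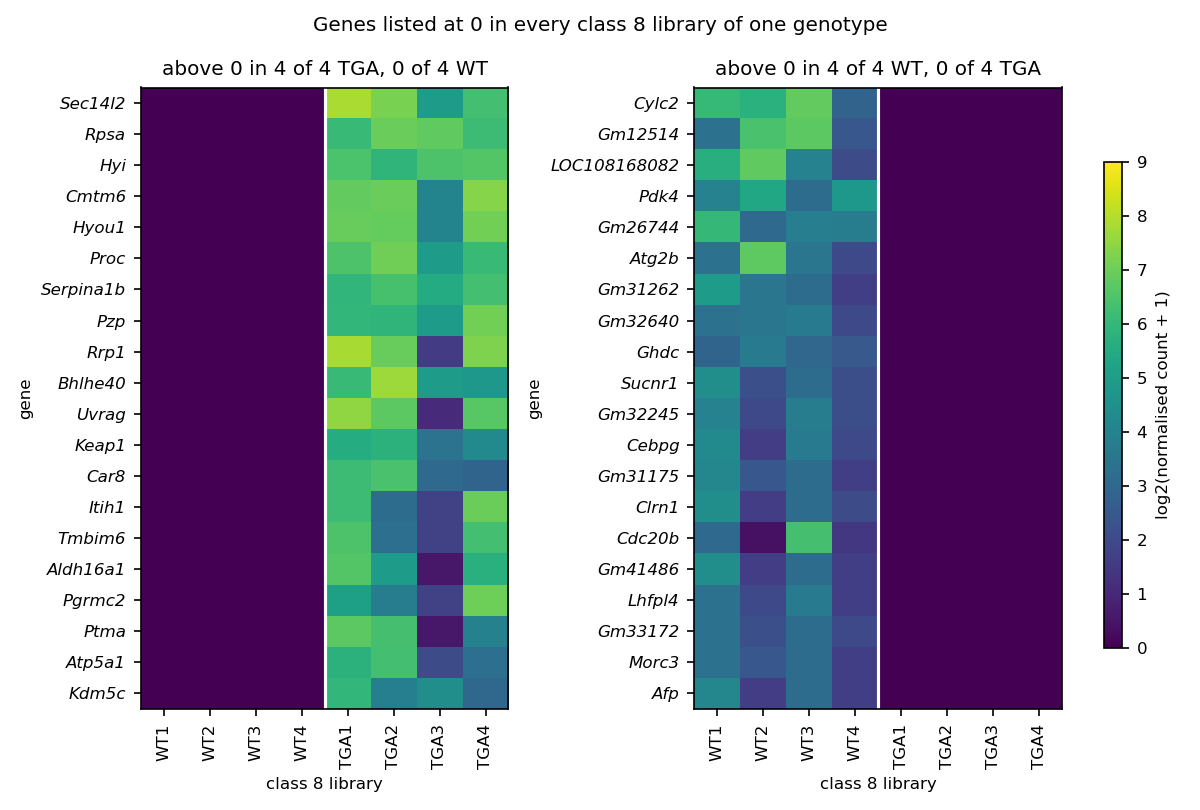
Levels, as log2(normalised count + 1), of 20 of the 41 genes found in TGA alone (left) and 20 of the 27 found in WT alone (right), in order of their means, by class 8 library. The darkest colour is 0, and the WT-only genes are mostly dimmer, with Cylc2 at the top.

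The 239 tested genes above 0 in all 8 class 8 libraries give a view without zeros. Some of their values still lay near the lowest readable level, as for Ahsg in WT and Nfia in TGA. Of these 239 genes, 107 were higher and 132 lower in TGA, 14 and 19 of them without overlap, against 1.62% and 1.6% of all genes tested. The median difference was -0.19 (-0.04 without TGA number 3). These genes were chosen by their values in these libraries, so the counts are a description. A gene listed at 0 in libraries of both genotypes overlaps by definition, so the shares over all genes tested are no benchmark here. Several of the most abundant transcripts overlapped between the genotypes. Mir6236 reached the highest value of the table, 16.41, in 6 of the 8 libraries, with 14.32 in WT number 1 and 15.54 in TGA number 3. Cyb5r3, a cytochrome b5 reductase, was 13.71, 14.32, 14.40 and 14.75 in WT and 14.32, 14.32, 10.60 and 14.16 in TGA. TGA number 3 was below all other 7 libraries in 10 of the 20 genes with the highest means. Its own highest value was that of Fah, fumarylacetoacetate hydrolase of tyrosine catabolism, at 16.41, against 8.34 to 11.21 in the other 7 class 8 libraries and up to 14.40 in the other 23 libraries of the series.

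The same contrast was taken in classes 2 and 4, whose libraries may come from the same animals as those of class 8, which the labels do not state. Rorb differed by -5.22 in class 2 (limma adjusted p = 0.00385) and by -1.69 in class 4. Its levels in class 2 were 13.42, 12.73, 12.98 and 13.42 in WT and 9.38, 7.70, 6.96 and 7.62 in TGA, without overlap, as in class 8. In class 4 they were 10.40, 15.45, 11.51 and 13.71 in WT and 12.98, 8.79, 13.42 and 9.11 in TGA, and overlapped. Apoa1 differed by 4.47 in class 2 (adjusted p = 0.0147) and 2.71 in class 4, Alb by 5.71 (adjusted p = 0.283 in class 2) and 4.25, and Arsb by -6.31 (adjusted p = 0.0329 in class 2) and -2.0. None of Rorb, Apoa1, Alb and Arsb passed the threshold in class 4. Apoa1 overlapped there, with 13.42 in WT number 1 against 10.52 to 13.71 in TGA. The medians of the hepatocyte marker list were 3.54 in class 2, 0.13 in class 4 and 1.76 in class 8.

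The class 8 difference was tested against the mean of the class 2 and class 4 differences. No gene passed: 0 of 4875 (0%) by limma with adjustment, with 106 more positive in class 8 (2.17%) and 80 more negative (1.64%) at an unadjusted p under 0.05. For Rorb the difference of differences was -1.23 (SE 1.12, adjusted p = 0.995). The smallest p belonged to Sec14l2, which differed by -1.82 in class 2 and -1.49 in class 4 and was listed at 0 throughout WT in class 8. The next were Fbxl17, a ubiquitin ligase subunit, Ccdc141, Aldh16a1 and Fras1, an extracellular matrix protein, all with an adjusted p of 0.904 and all listed at 0 in the 4 WT libraries of class 8. Nothing here is therefore called particular to class 8.

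**Figure D5:**
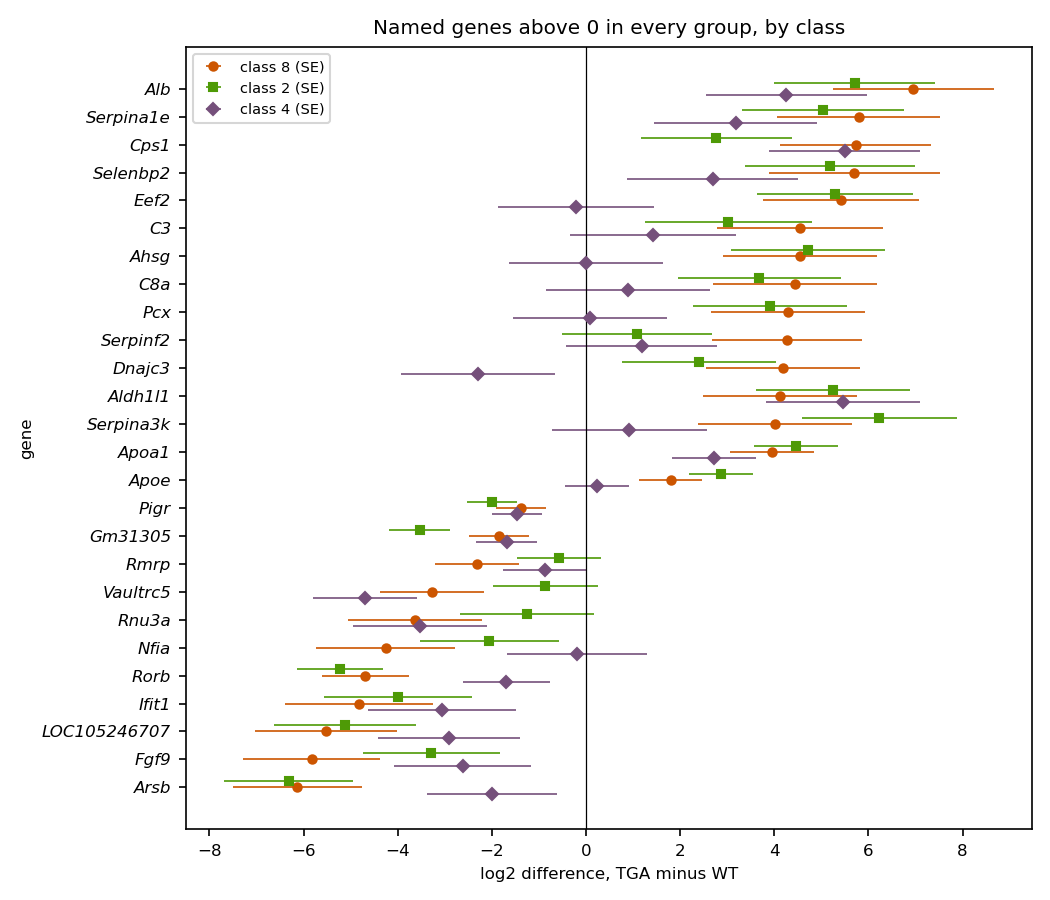
Log2 difference between TGA and WT in class 8 (circles), class 2 (squares) and class 4 (diamonds), with SE bars from limma, for the named genes with an unadjusted p under 0.02 in class 8 that were above 0 in at least 1 library of every genotype and class. For Rorb the 3 values are -4.69, -5.22 and -1.69, and for Alb 6.95, 5.71 and 4.25.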

How the data were processed

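The 24 libraries were made with NuGen reagents and sequenced in 1 lane on a NextSeq 500, per the labels' protocols. TopHat, edgeR and the genome build mm9 are named in the submitters' processing notes. What program counted reads, by which annotation and normalization, and all versions: not given in the sources used here.

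The deposited values are on a natural log scale, which was read from the values: 942 genes of one library shared (within 1e-09) the level of 2 natural logs of 2 over 24, as a count of 1 would after quantile normalization across libraries of ln(count + 1), and the highest value was shared by 20 of 24 libraries. Dividing by the natural log of 2 gave log2(normalised count + 1), a pseudocount of 1. Read totals are not recoverable, so the depth stays unknown and intervals from counts cannot be given.

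limma-trend (limma 3.58.1, R 4.3.3) was fitted to all 24 libraries with 6 group means and no covariate. Genes whose deposited value reached 1 (1.72 normalised counts) in 4 or more libraries were tested (4875), with Benjamini-Hochberg adjustment over them and a threshold of 0.05. The interaction contrast came from the same fit. The scripts were tested on simulated data. Genes were named by rule: those called, the 10 of smallest p in each direction, up to 4 of smallest p in each of 41 gene lists, up to 10 in each direction found in one genotype alone, the 10 most abundant and the 5 of smallest p in the interaction, with Anln and housekeeping genes as checks. Some genes that the rule selects are not reported here. Library sets, lists and rules were chosen with earlier results of these data known. Alternatives left out libraries, and changed the filter, pseudocount, centring, prior and covariates. RefSeq sequences and gene types (GRCm38.p6) served for names, types and promoters only, since the files' build differs.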

Additional observations from a re-analysis of the deposited data

Results flagged for a closer look

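In groups of 4 libraries without zeros, a value was taken up when its gap to the nearest other value was large against the group's range by Dixon's ratio. Of 98 groups 18 met this. The limit used is met by about 5% of groups of independent normal values, which is no benchmark here. Many of the genes were chosen by their values in these libraries, and tied values can give a ratio of 1, as for Mir6236. Among the 18 groups, 11 concern TGA number 3, which had 9096 genes above 0 against 2110 to 2860 in the other TGA libraries. Its values were the low ones of the TGA group for Apoa1 (10.19, others 13.71 to 14.40), Ass1, a urea cycle enzyme (0.45, others 6.02 to 6.73), C3 (1.87, others 7.14 to 8.04), Cmtm6 (4.05, others 6.84 to 7.36), Cyb5r3 (10.60, others 14.16 to 14.32), Hyou1 (4.05, others 6.86 to 7.08), LOC101056014 (10.87, others 15.54), Mir6236 (15.54, others 16.41), Rrp1 (1.61, others 6.92 to 7.84) and Serpinf2 (0.53, others 8.09 to 8.41). The part of this library in the differences was tested only by leaving it out.

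The other 7 values lay in 5 libraries. Alb was highest in TGA number 4 (10.35, others 8.54 to 8.79). In WT, Apoa1 was highest in number 4 (9.95, others 8.67 to 8.86) and Rorb in number 1 (15.54, others 13.42 to 13.71). The low values in WT were Fah in number 2 (9.16, others 10.87 to 11.21), Ifit1 in number 3 (7.19, others 8.79 to 8.98), Mir6236 in number 1 (14.32, others 16.41) and Pigr, the polymeric immunoglobulin receptor, in number 3 (12.73, others 12.98).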

How the results depend on the processing

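The count of genes past the adjusted threshold, 1 with all libraries, was between 0 and 3 when 1 class 8 library was left out: 0 without WT number 1, WT number 3 or TGA number 4, 2 with WT number 4 left out, 3 with WT number 2 left out, and 1 (Apoa1, not Rorb) with TGA number 3 left out. It was 0 with no filter on low values or with genes above 0 as a covariate, and 2 with libraries centred on their means (Rorb and 1 higher gene) or with no mean-dependent prior (Rorb not among them). It was 10 with the class 8 libraries only, 10 without the 4 libraries with the most genes above 0, and 26 with the filter set on the class 8 libraries, which favours genes that differ there. With a pseudocount of 10 the 1 gene called was not Rorb, and with a correlation within genotype and number it was. Of alternatives chosen after seeing the data, genes above 0 in all 8 libraries gave 7, and the class 8 libraries only, without TGA number 3, gave 18. The unadjusted count of 476 ran from 368 to 491 over the libraries left out, and was 869 with no filter (of 21390 genes), 229 with the class 8 filter (of 1390), 38 with genes above 0 in all 8 (of 239) and 308 with the class 8 libraries only, without TGA number 3. Centring moved the unadjusted split from 253 higher and 223 lower to 209 and 272. The interaction count was 0 in every alternative that could give it. The difference in genes above 0 (1035) was between -598.4 and 1730 over the libraries left out, and -248.5 for genes with a value of at least 1. With 1 library left out, the differences that reversed were Mir6236 (-0.219 to 0.523, negative without WT number 1), LOC101056014 (-0.0799 to 1.48, negative without TGA number 1, 2 or 4), ND4 (-2.58 to 0.291, positive without TGA number 2), Fah (-0.386 to 2.30, negative without TGA number 3) and Rpph1 (-0.502 to 0.666, positive without TGA number 3). Without the 4 libraries with the most genes above 0, Fah and Rpph1 had these same differences (-0.386 and 0.666). TGA number 3 is the only class 8 library among the 4, so this is no second result. For these changes the cause was not tested. Of 1747 alternative values of 98 named genes, 1684 kept direction and side of the threshold. Rorb alone was called with all libraries, so for the other genes the same side means that they stayed uncalled. Some alternatives, such as the block, leave the difference itself unchanged. Rorb was past the threshold in 9 of its 18 alternatives. With the replicate number as a block, 2 genes were called (Rorb and Apoa1) and 466 were under 0.05 unadjusted. Libraries of the same number did not deviate together beyond the limit of 0.1 set for pairing (correlations of 0.0154 to 0.055, all 4 positive, against -0.066 to 0.0582 for other numbers, 8 of 12 negative). For 1 of 4 WT and 2 of 4 TGA libraries the highest was with its own number, so the libraries are not treated as paired. Unknown depth limits every value near 0.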

Other observations

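Other groups of genes, like the housekeeping genes above, had mostly higher values in TGA in class 8, with no member past the threshold over all genes. Conjugation and glutathione enzymes, which make drugs and toxins soluble, were higher in 11 of 13 tested members (median 2.24, and 3.77 without TGA number 3). Its members Ugt1a10 and Ugt1a2 had equal values in every library, so the count and the medians hold a repeat. The mean level of this list overlapped between the genotypes, at 0.31 to 4.29 in WT and 0.57 to 5.58 in TGA. Cytochrome P450 genes of the xenobiotic families were higher in 9 of 12 (median 1.04, and 1.68 without TGA number 3), and genes with male-biased expression in mouse liver in 7 of 8 (median 1.63, and 5.70 over the 3 above 0 in both genotypes). Selenbp2, a selenium-binding protein, was 0, 4.94, 0 and 0 in WT and 5.90, 7.46, 6.28 and 8.12 in TGA, without overlap (difference 5.70, SE 1.82, limma adjusted p = 0.273).

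Growth control genes were thinly covered. Of 32 proliferation genes 3 were tested and of 20 cytokinesis and ploidy genes 1. Tumour suppressors were higher in 13 of 17 tested members, and their median of 0.70 became 0 without TGA number 3. Of p53 targets and growth arrest genes, 5 of 6 tested were higher and 1 lower (median 1.69, 1.46 without TGA number 3, and -1.86 over the 2 above 0 in both genotypes). The lower one, Gadd45g, a growth arrest and DNA damage gene, was 6.91, 7.21, 7.37 and 7.93 in WT and 6.44, 7.14, 0.59 and 0 in TGA (difference -3.81, SE 1.66, limma adjusted p = 0.455).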
